A study of Mus musculus with 6 samples.

Results

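The genes described here are 33 genes of glucose uptake, glycolysis, lactate handling and the hypoxia response, taken by symbol from the 25124 gene symbols of the deposited expression table. All 33 were found. Of them, 22 act in glucose uptake, glycolysis and lactate handling and 11 in the hypoxia response. RNA was measured by sequencing of polyadenylated transcripts in 3 libraries of RAW264.7 cells labelled E4BP4 knockout and in 3 control libraries of RAW264.7 cells. RAW264.7 is a mouse macrophage-like cell line that was transformed with Abelson leukaemia virus, and E4BP4 is a bZIP transcription factor encoded by Nfil3. Both groups grew untreated in medium with 25 mM glucose and 10% serum, at fewer than 15 passages. The editing method, the number of clones behind each group and whether the replicates were separate cultures are not given in the sources used here. P-values therefore reflect only how far these libraries scatter, and that scatter may be technical.

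Nfil3 itself stood at 105, 104 and 99.8 TPM in the libraries labelled knockout, against 29.5, 29.9 and 31.0 TPM in the control libraries, so the targeted transcript was higher under the knockout label. TPM expresses a transcript's abundance per length and relative to the whole library. Transcript levels do not tell if E4BP4 protein was absent, so the directions below rest on the labels alone. All 10 macrophage markers examined were expressed, of which 3 were higher, 5 lower and 2 did not pass. Of all genes tested, 26.7% were higher and 23.4% lower. Adgre1 was the lowest marker, at 1.31 to 1.76 TPM under the knockout label, against 2.15 to 3.08 TPM in the controls. The markers summed to 4937 to 5086 TPM in the libraries labelled knockout and 3795 to 4148 TPM in the controls. Lyz2, which encodes lysozyme, made the largest part of that sum, at 2218 ± 49.2 TPM under the knockout label, against 1069 ± 78.3 TPM in the controls, while the median log2 fold change of the 10 markers was −0.15. Csf1r, the receptor for the macrophage growth factor CSF1, averaged 159.2 ± 7.31 TPM under the knockout label, against 248.4 ± 7.70 TPM in the controls, and Cd14, a lipopolysaccharide co-receptor, 876.1, 863.7 and 836.9 TPM under the knockout label, against 644.0, 634.5 and 634.0 TPM in the controls. The part of these markers in the results was not tested. All 21 markers of other cell types stayed below 1 TPM in every library, with sums of 0.990 to 1.93 TPM in the libraries labelled knockout and 1.51 to 1.98 TPM in the controls, with Hba-a1, Hbb-bs, Krt8 and Mpo among those at 0. The reads recovered from the table numbered 18373052 to 19867732 per library labelled knockout and 15615639 to 18110568 per control library.

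Glycolysis splits glucose into pyruvate, and lactate dehydrogenase regenerates the NAD that the pathway needs when pyruvate is turned into lactate. Activated macrophages are known for high glycolytic flux. In ample oxygen, prolyl hydroxylases encoded by the Egln genes mark the HIF-1α protein for destruction, and in low oxygen HIF-1α accumulates and raises transcription of the glucose transporter, most glycolytic enzymes and other targets. HIF-1α is controlled mainly as a protein, so the level of its transcript says little about its activity.

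Most tested members moved by small amounts and in both directions, with Ero1l (log2 fold change 1.00) and Ldhb (−1.89) at the extremes. Ldhb, counted below among the lower genes, reached the tested level only through the 3 controls. Its value depends on the amount added to TPM before the logarithm, and was −4.36 with 0.1 in place of 1. Of 33 members, 31 reached the level needed for testing, and 14 of them were higher, 7 lower and 10 did not pass in the libraries labelled knockout (limma on log2(TPM + 1), adjusted p under 0.05 over all genes tested). Among all 11257 genes tested, 50.1% passed, 26.7% higher and 23.4% lower. Members are abundant transcripts, and among the 4977 tested genes with a mean of at least 20 TPM, 56.5% passed, against 20 of the 27 members at that level, which is 74.1%. The groups did not overlap for 22 of the 31 tested members, and for 58.5% of all genes tested. The median log2 fold change was 0.11 over the tested members and 0.02 over all genes tested. In the authors' deposited table, 23 of the 33 members had an adjusted p under 0.05, against 45.9% of the genes tested here that it lists. The 33 also include Vegfa and Egln3, which were not tested here, and Vegfa is among the 23.

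**Figure D1:**
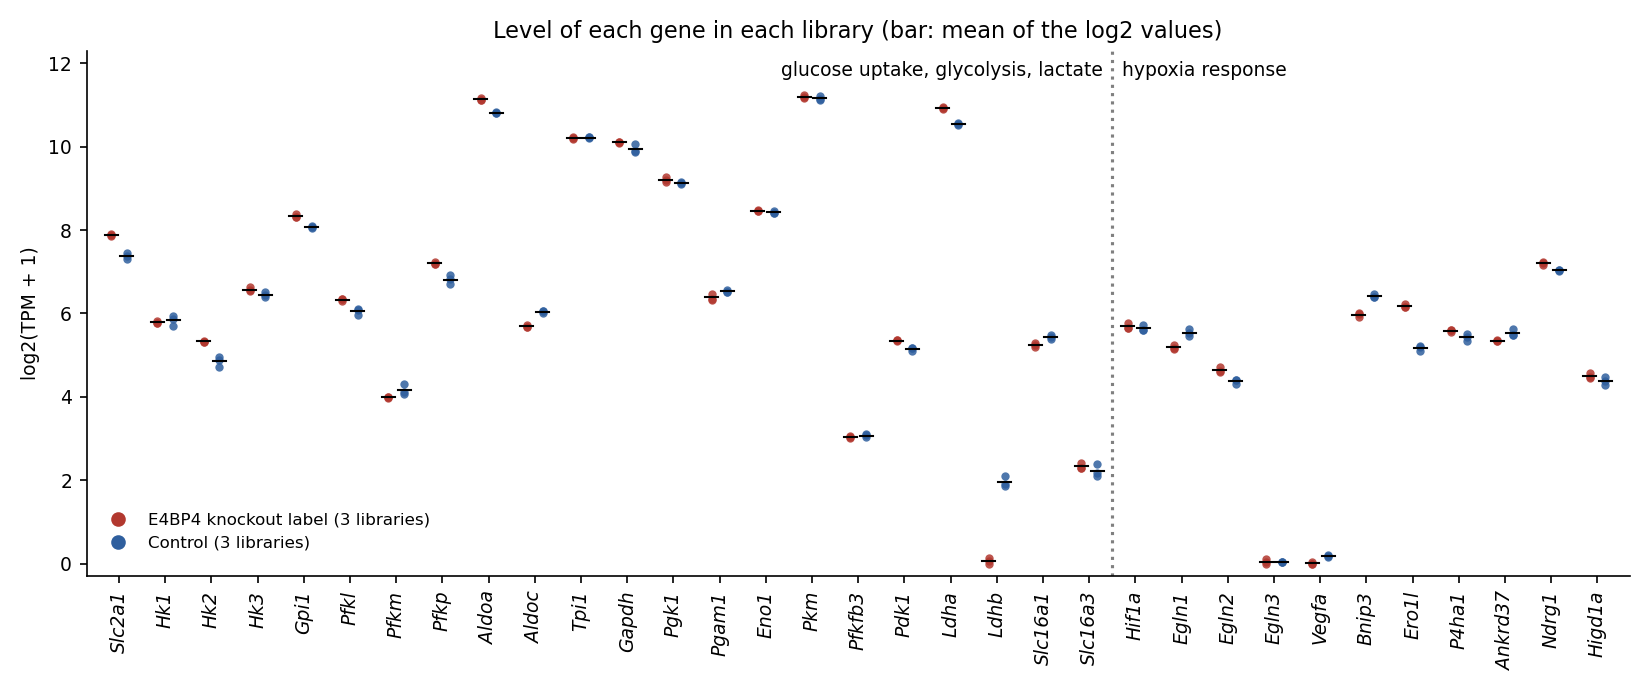
Level of each of the 33 genes as log2(TPM + 1), with 1 point per library, libraries labelled knockout left of control libraries, and a bar at the mean of the log2 values. Pkm, Aldoa, Ldha, Tpi1 and Gapdh were the most abundant, Ldhb was near 0 under the knockout label, and Vegfa and Egln3 were near 0 in both groups.

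Among tested members Ero1l and Slc2a1 had the 2 largest rises, and Ldhb and Bnip3 the 2 largest falls. The 250 bases before the transcription start of each are shown, because HIF binds a short core (ACGTG or GCGTG) that many of its targets carry in such windows. The sequences are from RefSeq (GRCm38.p6, the assembly of mm10) and run 5′ to 3′ on the gene's strand. Capitals mark ACGTG or GCGTG, or their reverse complements CACGT and CACGC, where neighbouring matches can overlap.
Ero1l (listed as Ero1a in RefSeq), chr14:45318573-45318822, minus strand: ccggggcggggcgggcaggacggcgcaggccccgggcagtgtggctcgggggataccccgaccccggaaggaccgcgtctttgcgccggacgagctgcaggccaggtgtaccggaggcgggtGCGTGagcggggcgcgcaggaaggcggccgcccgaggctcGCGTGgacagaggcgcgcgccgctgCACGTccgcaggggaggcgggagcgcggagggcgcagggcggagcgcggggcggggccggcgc
Slc2a1, chr4:119108495-119108744, plus strand: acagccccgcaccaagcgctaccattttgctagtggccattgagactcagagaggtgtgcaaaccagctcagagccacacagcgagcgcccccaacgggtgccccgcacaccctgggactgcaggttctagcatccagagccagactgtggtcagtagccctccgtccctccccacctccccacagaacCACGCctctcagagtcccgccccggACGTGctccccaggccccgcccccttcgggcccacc
Ldhb, chr6:142507958-142508207, minus strand: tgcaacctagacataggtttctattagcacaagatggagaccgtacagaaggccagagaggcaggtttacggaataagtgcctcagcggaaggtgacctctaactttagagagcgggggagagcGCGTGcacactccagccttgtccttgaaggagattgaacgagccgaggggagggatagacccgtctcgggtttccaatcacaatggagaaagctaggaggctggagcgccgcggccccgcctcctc
Bnip3, chr7:138909507-138909756, minus strand: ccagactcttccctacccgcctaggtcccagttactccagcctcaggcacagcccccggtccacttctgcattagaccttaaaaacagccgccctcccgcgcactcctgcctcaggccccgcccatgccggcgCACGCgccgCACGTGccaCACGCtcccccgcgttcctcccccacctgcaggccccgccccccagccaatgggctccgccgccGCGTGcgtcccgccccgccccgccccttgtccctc
The core stood in the windows of genes that rose and of genes that fell. RefSeq windows were found for 32 of the 33 members, with none matched for Ndrg1, and 39 of their 47 windows held the core in either form, which is 83.0%. Windows of the same gene can overlap and share a match, as for Aldoa, Eno1 and Pfkm, so the windows are not independent. The share was 38.6% over all 32851 windows and 57.2% over the 11135 windows of tested genes. Median GC content was 61.6% in the members' windows, 52.4% in all windows and 60.0% in windows of tested genes. By gene, 12 of 13 members that rose, 7 of 7 that fell and 9 of 10 that did not pass held a match, and Gpi1 and Tpi1 held none. The share by gene over all genes is not given here. The D-box motifs TTATGTAA and TTACGTAA, to which E4BP4 binds, and the motif TGATGCAA, which ATF4 and C/EBP dimers bind, were in 0 of the 47 windows on either strand, and in 0.819%, 0.113% and 0.792% of all windows. With shares this low, 47 windows would most likely hold no match in any case, so their absence carries no information about such sites. Their shares in the windows of tested genes, which are richer in GC, are not given here.

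The glucose transporter Slc2a1 and the upper glycolytic genes Hk2, Pfkp and Pfkl rose. Slc2a1 encodes GLUT1, a widely expressed glucose transporter, and lies on chromosome 4 from 119108745 to 119137329 (plus strand, mm10). It had levels of 231.9, 235.8 and 237.6 TPM in the libraries labelled knockout, against 157.5, 174.3 and 164.5 TPM in the controls. Every library labelled knockout was above every control, and the ratio of the means, 235.1 ± 2.92 over 165.5 ± 8.45 TPM (SD, n = 3 each), was 1.42 (here and below, libraries labelled knockout over controls; log2 fold change 0.51, SE 0.042, limma adjusted p = 1.05e-05).

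Of the hexokinases, which trap glucose in the cell as glucose 6-phosphate, Hk2 rose most. Hk2, the inducible isoform, was at 38.9, 39.1 and 39.8 TPM in the libraries labelled knockout, against 25.1, 29.9 and 28.8 TPM in the controls (ratio 1.41, log2 fold change 0.48, SE 0.061, limma adjusted p = 1.60e-04). Hk3, the most abundant hexokinase here, averaged 94.3 ± 3.19 TPM under the knockout label, against 86.5 ± 3.78 TPM in the controls (limma adjusted p = 0.0413). The Hk3 call was at the threshold and ended with upper-quartile scaling (adjusted p = 0.0666), with median-of-ratios scaling (0.0660), without a filter (0.0742), with chromosome medians subtracted (0.0667), without replicates 1 (0.0760), 2 (0.148) or 3 (0.0520) of the libraries labelled knockout, and without control replicates 1 (0.0964) or 2 (0.0764). Hk1, the widely expressed isoform bound to mitochondria, stood at 53.5, 53.7 and 55.2 TPM in the libraries labelled knockout, against 50.7, 60.7 and 57.5 TPM in the controls, and did not pass (adjusted p = 0.507). Without control replicate 1 the value of Hk1 was −0.12 with an adjusted p of 0.0312.

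Hk2 thus made up a larger share of the summed hexokinase level. Its share was 21.0%, 20.5% and 21.3% in the libraries labelled knockout, against 15.8%, 16.9% and 16.3% in the controls. The Hk1 share was 28.9%, 28.2% and 29.5% under the knockout label, against 32.0%, 34.3% and 32.6% in the controls, with no overlap, while that of Hk3 averaged 50.2 ± 1.06% under the knockout label, against 50.7 ± 1.71% in the controls (SD, n = 3 each). The exact two-sided permutation test gave 0.1 for Hk2 and Hk1, the smallest p that 3 libraries against 3 allow (0.133 adjusted over the 12 shares examined), and 0.8 for Hk3.

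Phosphofructokinase commits sugar to glycolysis, and 2 of its 3 isoforms rose, beside 26.7% of all genes tested. Pfkp, the platelet-type and most abundant isoform, had levels of 145.8, 149.9 and 144.5 TPM in the libraries labelled knockout, against 103.0, 119.5 and 112.4 TPM in the controls (ratio 1.31, log2 fold change 0.39, SE 0.052, limma adjusted p = 1.99e-04). Pfkl, the liver type, averaged 79.5 ± 1.62 TPM under the knockout label, against 65.3 ± 3.32 TPM in the controls (limma adjusted p = 6.06e-04). Pfkm, the muscle type, ran the other way, at 15.1, 14.9 and 14.8 TPM under the knockout label, against 15.7, 19.0 and 16.4 TPM in the controls. Its log2 fold change of −0.17 missed the threshold (limma adjusted p = 0.0552), but passed it on recovered reads with limma-voom (adjusted p = 0.00591), on the authors' log2 values (0.0118), with median-of-ratios (0.0262) or upper-quartile scaling (0.0256), at a TPM minimum of 5 (0.0394) and without control replicate 1 (0.0189).
The isoform shares followed: Pfkp made up 60.8 ± 0.423% of phosphofructokinase transcripts under the knockout label, against 57.5 ± 0.606% in the controls, and Pfkm 6.19 ± 0.0842% under the knockout label, against 8.77 ± 0.464% in the controls (exact permutation p = 0.1 for each, the smallest possible). Pfkfb3, which makes the allosteric activator of phosphofructokinase, averaged 7.26 ± 0.144 TPM under the knockout label and 7.40 ± 0.206 TPM in the controls and did not pass (adjusted p = 0.737).

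**Figure D2:**
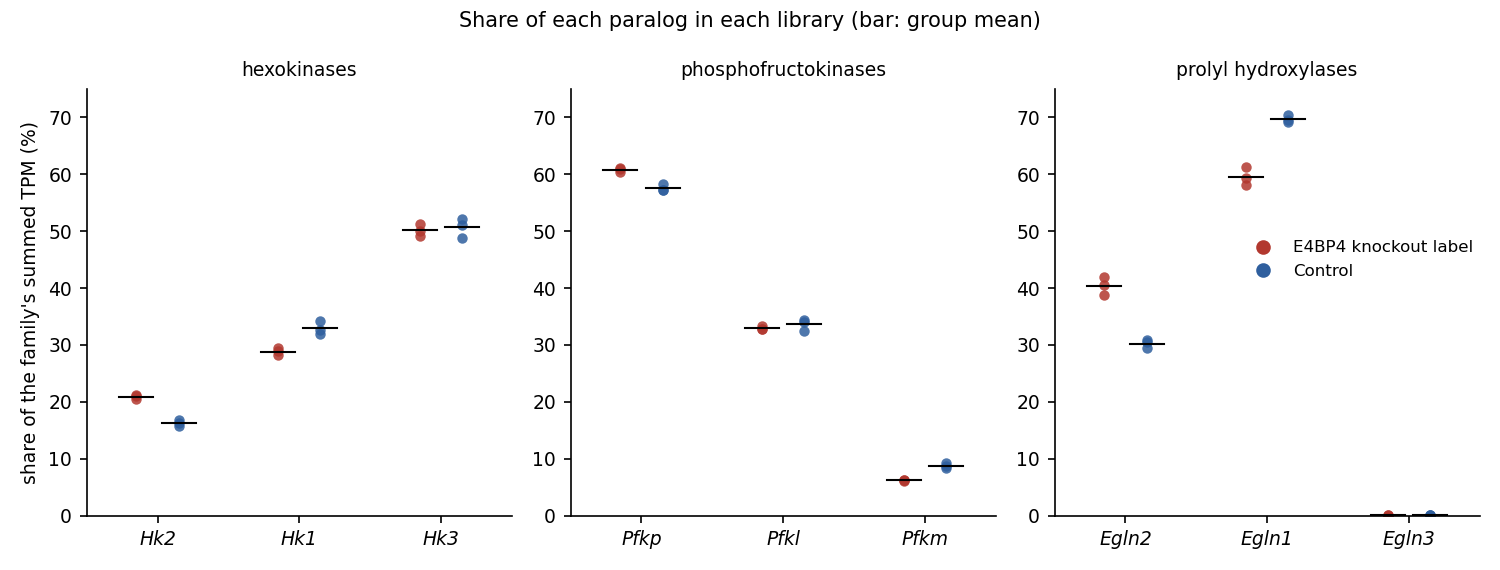
Share of each paralog in the summed TPM of its family, in percent, with 1 point per library, libraries labelled knockout left of control libraries, and a bar at the group mean. The shares of Hk2, Pfkp and Egln2 were higher in every library labelled knockout than in any control.

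Gpi1, Aldoa and Ldha also rose, and all 3 lie on chromosome 7, where most genes were higher. Gpi1, glucose phosphate isomerase (34201327 to 34230336), was at 318.7, 316.3 and 332.9 TPM in the libraries labelled knockout, against 266.9, 272.2 and 262.9 TPM in the controls. Aldoa, the main aldolase (126795234 to 126799254), measured 2226, 2225 and 2308 TPM under the knockout label, against 1826, 1782 and 1785 TPM in the controls. Ldha, the lactate dehydrogenase subunit that favours lactate formation (46845804 to 46855627), measured 1926, 1964 and 1944 TPM under the knockout label, against 1498, 1528 and 1464 TPM in the controls. No library labelled knockout overlapped a control for any of these genes, as was so for 58.5% of all genes tested. The log2 fold changes were 0.27 (SE 0.035), 0.33 (SE 0.035) and 0.38 (SE 0.035), with limma adjusted p-values of 1.88e-04, 5.83e-05 and 2.03e-05.

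On chromosome 7, 59.2% of 878 tested genes were higher and 8.31% lower, with a median log2 fold change of 0.24, while the medians of the other autosomes and X lay between −0.05 and 0.06. The genes within 5 Mb of Gpi1, Aldoa and Ldha had medians of 0.24, 0.25 and 0.26. With each chromosome's median subtracted before the test, Gpi1 stood at 0.03 (adjusted p = 0.536) and Aldoa at 0.08 (adjusted p = 0.0778), and both calls ended. Ldha kept a difference of 0.14 (adjusted p = 0.00989), and 72.0% of the tested genes of chromosome 7 had a lower value than Ldha. Egln2, also on chromosome 7, lost its call in the same way (0.03, adjusted p = 0.626). Slc2a1, Hk2, Pfkp and Pfkl lie on other chromosomes and stood at 0.49, 0.48, 0.38 and 0.29 after that subtraction, all still passing. After it 10 members were higher and 7 lower, among 47.8% of all genes tested that passed.

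**Figure D3:**
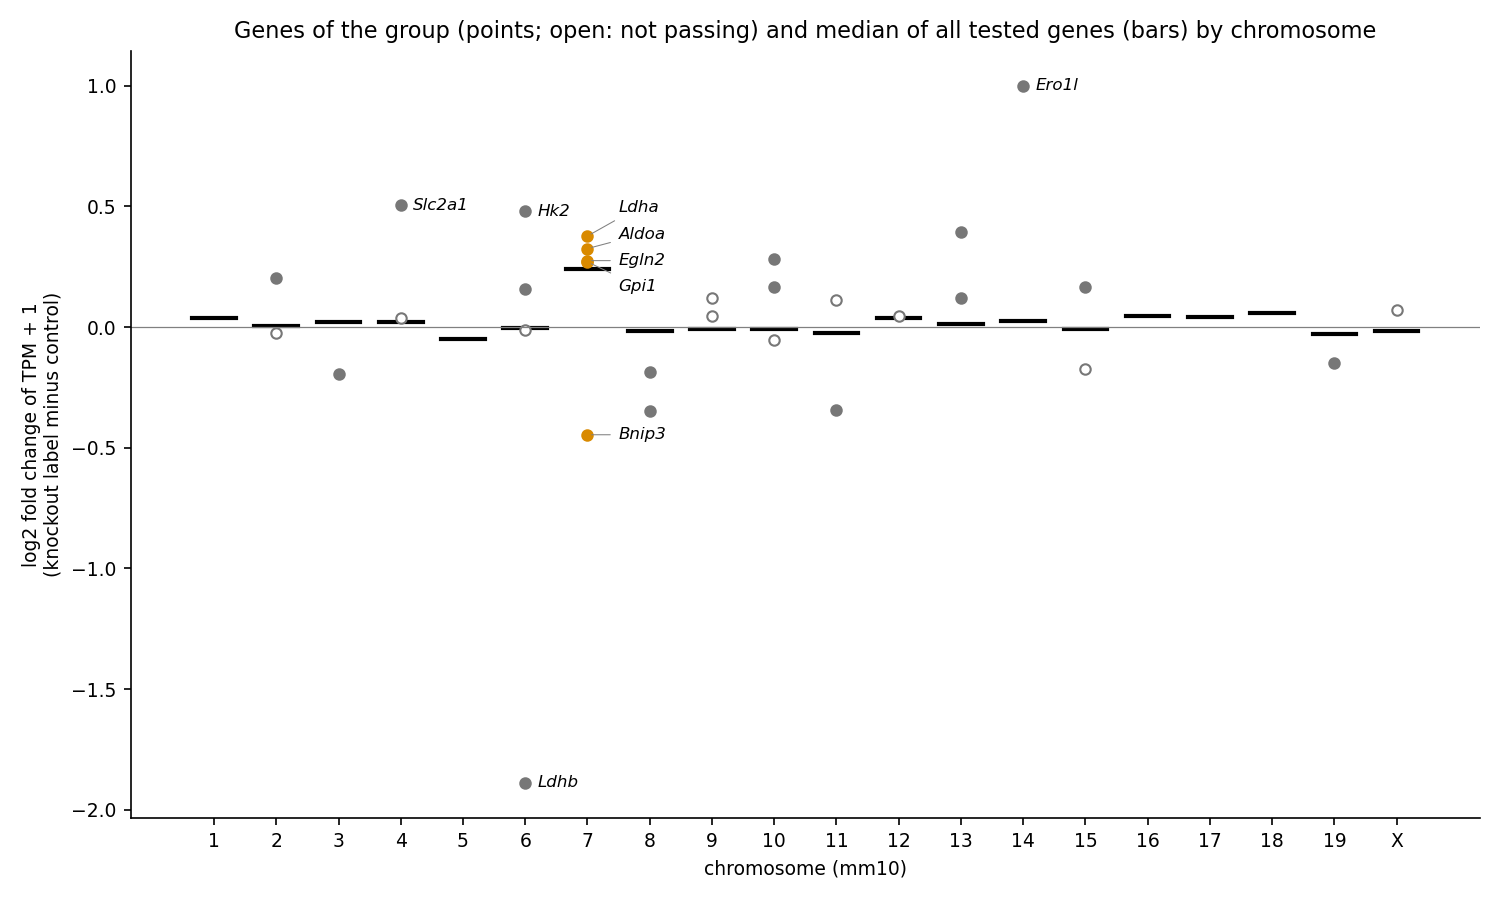
Log2 fold change of TPM + 1 (libraries labelled knockout minus controls) of each tested member by chromosome, filled where the adjusted p was under 0.05, with a bar at the median of all tested genes of that chromosome. The bar of chromosome 7 stands at 0.24, with Gpi1, Egln2, Aldoa and Ldha above it and Bnip3 far below.

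Of the 7 genes of the upper steps from Gpi1 to Tpi1, 4 rose, 1 fell and 2 did not pass. Of all genes tested, 26.7% were higher and 23.4% lower. Gpi1 and Aldoa, among those that rose, lie on chromosome 7. With chromosome medians subtracted, 2 genes of the upper steps were higher, 1 lower and 4 did not pass, with a median of 0.03. Tpi1, triosephosphate isomerase, closes those steps and averaged 1180 ± 25.9 TPM under the knockout label, against 1191 ± 8.29 TPM in the controls (SD, n = 3 each; limma adjusted p = 0.772). Of the 5 genes of the lower steps, 1 rose, 1 fell and 3 did not pass, a division near that of all genes tested, of which 50.1% passed. Pkm, pyruvate kinase and the most abundant member, averaged 2354 ± 55.3 TPM under the knockout label, against 2280.3 ± 68.2 TPM in the controls, and the table does not separate its M1 and M2 splice forms. Pgk1, phosphoglycerate kinase, averaged 589.4 ± 23.9 TPM under the knockout label, against 560.4 ± 6.48 TPM in the controls. Eno1, enolase, averaged 352.6 ± 3.01 TPM under the knockout label, against 343.5 ± 7.59 TPM in the controls. The limma adjusted p-values of Pkm, Pgk1 and Eno1 were 0.354, 0.147 and 0.371. Eno1 has a nearly identical copy, Eno1b, listed separately at 66.7 to 69.5 TPM in the libraries labelled knockout and 62.4 to 65.3 TPM in the controls, and how reads shared by both were assigned is not given. Many glycolytic genes have processed copies in the mouse genome, so how reads were assigned may matter for other members too.

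Gapdh, often used as a reference gene, stood at 1104, 1087 and 1113 TPM in the libraries labelled knockout, against 1068, 957.7 and 943.3 TPM in the controls (log2 fold change 0.16, limma adjusted p = 0.0239). The groups did not overlap, with control replicate 1 closest to the libraries labelled knockout. The call ended with upper-quartile scaling (adjusted p = 0.0906), with median-of-ratios scaling (0.0804), without a filter (0.105), without replicates 1 (0.0727) or 3 (0.0608) of the libraries labelled knockout and without control replicates 2 (0.0669) or 3 (0.0889). Pgam1, phosphoglycerate mutase, was lower, at 79.4, 80.9 and 87.4 TPM under the knockout label, against 90.4, 94.2 and 90.3 TPM in the controls (limma adjusted p = 0.0192). That call ended without replicates 1 (0.0870) or 2 (0.0666) of the libraries labelled knockout and without control replicate 2 (0.0598).

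Summed over the 17 enzyme genes from hexokinase to lactate dehydrogenase, the level was 10599, 10741 and 10639 TPM in the libraries labelled knockout, against 9474, 9556 and 9322 TPM in the controls. The ratio of means was 1.13. Most of that difference lay in Aldoa, Ldha and Gpi1, which are on chromosome 7. Aldoa averaged 2253 TPM under the knockout label, against 1798 TPM in the controls, and Ldha 1944 TPM, against 1497 TPM. By step, the ratio was 1.30 for lactate dehydrogenase, 1.24 for phosphofructokinase, 1.24 for aldolase, 1.21 for glucose phosphate isomerase, 1.11 for glyceraldehyde phosphate dehydrogenase and 1.10 for hexokinase. It was 0.991 for triosephosphate isomerase, 1.03 for pyruvate kinase, 1.03 for enolase, 1.05 for phosphoglycerate kinase and 0.901 for phosphoglycerate mutase. Of the 4 steps with the highest ratios, those of lactate dehydrogenase, aldolase and glucose phosphate isomerase rest mainly or only on genes of chromosome 7.

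2 minor isoforms fell while their major partners rose, and of all genes tested 23.4% were lower and 26.7% higher. Ldhb, the lactate dehydrogenase subunit that favours pyruvate formation, lies on chromosome 6 from 142490249 to 142507957 (minus strand) and was nearly lost. It was listed at 0, 0.0510 and 0.105 TPM in the libraries labelled knockout, against 3.31, 2.76 and 2.64 TPM in the controls. These levels rested on 0, 1 and 2 recovered reads under the knockout label, against 61, 49 and 41 reads in the controls. The ratio of reads per depth was 0.0181, with a 95% exact interval of 0.00369 to 0.0538 that covers counting error only. The fitted log2 fold change of −1.89 (limma adjusted p = 1.31e-06) understates it because of the pseudocount, and Ldhb reached the tested level only through the 3 controls. With any 1 control library left out, or at a TPM minimum of 5, it was no longer tested, and without a filter its adjusted p was 3.16e-05. Against Ldha this was a minute part of the enzyme: Ldhb made up 0.00267% of lactate dehydrogenase transcripts in the libraries labelled knockout and 0.194% in the controls.

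Aldoc, the brain-type aldolase, had levels of 50.3, 50.5 and 51.8 TPM in the libraries labelled knockout, against 63.9, 65.2 and 65.3 TPM in the controls. It fell by 0.34 on the log2 scale (SE 0.036, limma adjusted p = 4.37e-05). Its share of aldolase transcripts was 2.21 ± 0.0106% under the knockout label, against 3.48 ± 0.0864% in the controls (exact permutation p = 0.1, the smallest possible). With chromosome medians subtracted Aldoc still passed (limma adjusted p = 7.32e-05), while its partner Aldoa did not (0.0778).

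At the exits of the pathway Pdk1 rose and Slc16a1 fell. Pdk1, which shuts pyruvate out of the mitochondrial pyruvate dehydrogenase, rose to 39.8 ± 0.415 TPM in the libraries labelled knockout, against 34.4 ± 0.766 TPM in the controls (log2 fold change 0.20, limma adjusted p = 0.00183). Slc16a1, which encodes the lactate transporter MCT1, measured 36.7, 35.4 and 38.1 TPM under the knockout label, against 40.9, 42.1 and 43.7 TPM in the controls, and fell by 0.20 (SE 0.044, limma adjusted p = 0.00485). Slc16a3, which encodes the lactate exporter MCT4, was far less abundant, at 4.07 ± 0.231 TPM under the knockout label, against 3.71 ± 0.510 TPM in the controls, and did not pass (adjusted p = 0.340).

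**Figure D4:**
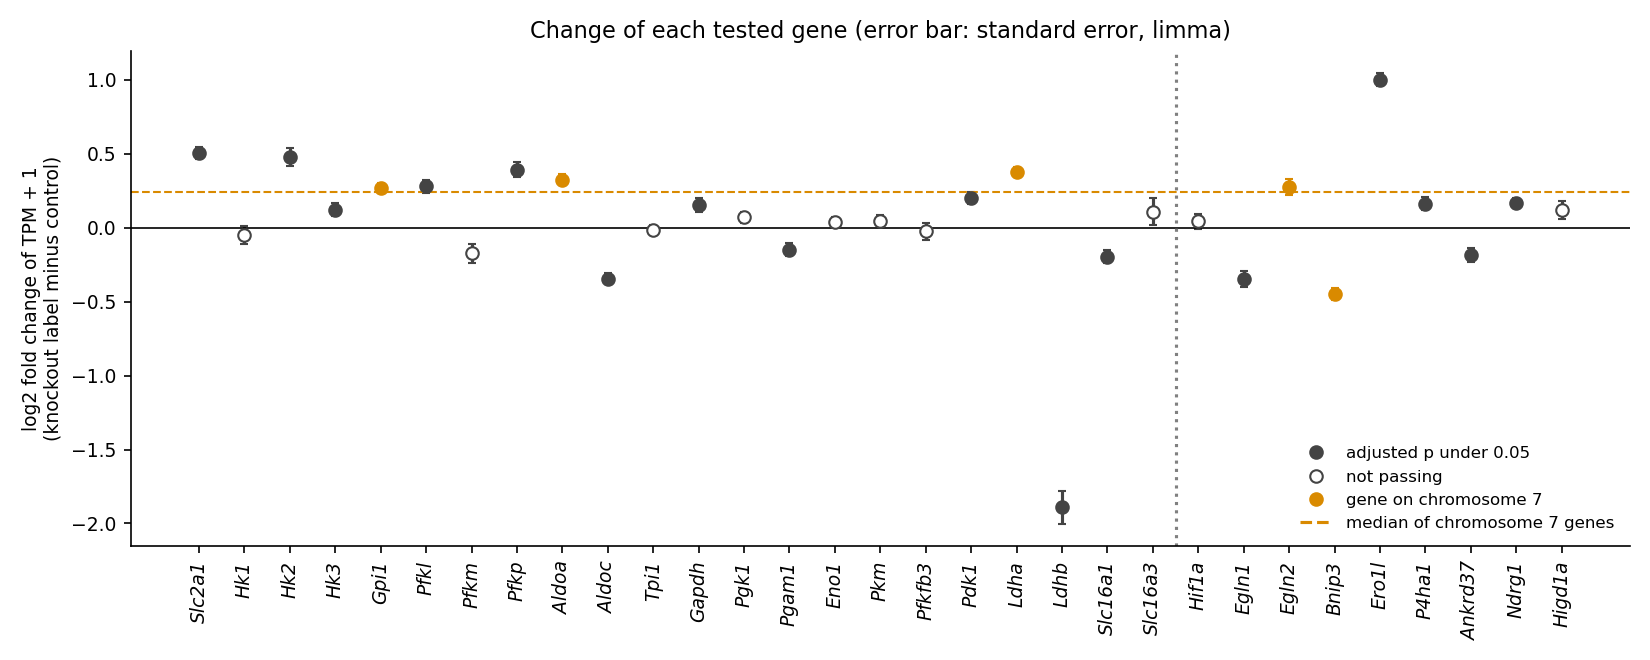
Log2 fold change of TPM + 1 (libraries labelled knockout minus controls) of the 31 tested members with its standard error from limma, filled where the adjusted p was under 0.05, in the order of the pathway and then the hypoxia response. Genes of chromosome 7 and the median of that chromosome (dashed, 0.24) are in orange, and Ero1l at 1.00 and Ldhb at −1.89 are the extremes.

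Among the hypoxia response genes the HIF factor itself did not pass, and its oxygen sensors moved in opposite directions. Hif1a, the oxygen-regulated subunit of HIF-1, was at 49.0, 49.4 and 53.7 TPM in the libraries labelled knockout, against 47.3, 52.1 and 48.0 TPM in the controls (log2 fold change 0.04, SE 0.052, limma adjusted p = 0.507). Egln1, the main prolyl hydroxylase acting on HIF-1α, measured 34.5, 35.2 and 37.0 TPM under the knockout label, against 42.8, 45.5 and 48.2 TPM in the controls, and fell by 0.35 (SE 0.051, limma adjusted p = 4.14e-04). Egln2 measured 23.5, 25.4 and 23.4 TPM under the knockout label, against 18.8, 20.3 and 20.2 TPM in the controls (log2 fold change 0.28, SE 0.052, limma adjusted p = 0.00178), the rise that ended once the median of chromosome 7 was subtracted. Neither gene overlapped between groups, as was so for 58.5% of all genes tested.

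Egln2 accordingly held 40.4 ± 1.61% of the summed Egln level in the libraries labelled knockout, against 30.2 ± 0.690% in the controls, and Egln1 59.6 ± 1.59% under the knockout label, against 69.7 ± 0.688% in the controls (SD, n = 3 each; exact permutation p = 0.1, the smallest possible). Egln3, an isoform that hypoxia induces strongly in many cells, was at the edge of detection, with 3, 0 and 1 reads in the libraries labelled knockout and 1, 1 and 1 reads in the controls. Its difference was not detectable at this depth.

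The classical targets of HIF did not move as a block. Ero1l encodes an oxidase that drives disulfide formation in the endoplasmic reticulum, and is known as a target of both HIF and the stress factor CHOP. It lies on chromosome 14 from 45283087 to 45318572 (minus strand) and stood at 70.2, 70.1 and 73.9 TPM in the libraries labelled knockout, against 33.5, 35.8 and 36.3 TPM in the controls. The groups were far apart relative to their spread, with a ratio of 2.03 (log2 fold change 1.00, SE 0.045, limma adjusted p = 1.98e-07). Small rises followed for P4ha1, a subunit of the collagen prolyl hydroxylase, and Ndrg1, a stress-responsive gene. P4ha1 averaged 47.2 ± 1.07 TPM under the knockout label, against 42.0 ± 2.19 TPM in the controls (limma adjusted p = 0.0151), a call lost once replicate 2 under the knockout label was left out (adjusted p = 0.0530). Ndrg1 averaged 146.4 ± 4.38 TPM under the knockout label, against 130.3 ± 0.919 TPM in the controls (limma adjusted p = 0.00345).

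Bnip3, a mitophagy receptor and standard HIF target, fell. It had levels of 59.1, 63.0 and 62.7 TPM in the libraries labelled knockout, against 87.1, 82.6 and 83.1 TPM in the controls, with no overlap (log2 fold change −0.45, SE 0.041, limma adjusted p = 2.07e-05). Bnip3 lies on chromosome 7 (138890836 to 138909506), and only 3.1% of that chromosome's tested genes had a lower value. With the chromosome's median subtracted the difference was −0.69 (adjusted p = 1.43e-06), larger because a positive median was taken from a fall. The genes within 5 Mb of Bnip3 had a median of 0.16. Ankrd37, an ankyrin repeat gene induced by hypoxia, fell to 39.2, 39.6 and 40.3 TPM in the libraries labelled knockout, against 48.2, 43.7 and 44.0 TPM in the controls (log2 fold change −0.18, limma adjusted p = 0.00859).

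Higd1a, a mitochondrial protein gene induced by hypoxia, measured 21.8 ± 1.09 TPM under the knockout label, against 19.9 ± 1.43 TPM in the controls and did not pass (adjusted p = 0.125), though it did without control replicate 1 (log2 fold change 0.17, adjusted p = 0.0379). Vegfa, the angiogenic growth factor and a prominent HIF target, was near the floor of detection. It had 0, 0 and 2 reads in the libraries labelled knockout and 6, 7 and 7 reads in the controls, and was not tested here. The ratio of reads per depth was 0.0910, with a 95% exact interval of 0.0103 to 0.375, and the authors' deposited table gave a log2 fold change of −3.55 and an adjusted p of 0.0166.

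Set side by side, the 22 tested genes of glucose uptake, glycolysis and lactate split into 10 higher, 4 lower and 8 not passing, and their median log2 fold change was 0.09. The 9 tested hypoxia response genes split into 4 higher, 3 lower and 2 not passing, and their median was 0.12. Over all genes tested, 26.7% were higher and 23.4% lower, so that 14 of 22 and 7 of 9 passing stand beside 50.1%. With chromosome medians subtracted the counts were 7 and 4 for the first group and 3 and 3 for the second, with medians of 0.07 and 0.03. The difference between the medians of the 2 groups of genes was not tested. The range was wide in each, −1.89 to 0.51 for the pathway genes and −0.45 to 1.00 for the hypoxia genes. The low end of the pathway genes was Ldhb, tested only through the controls, and the next lowest was Aldoc at −0.34.

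The wider pathways, given by lists of other genes, held changes in both directions, as did all genes tested, of which 26.7% were higher and 23.4% lower. Of 15 tested other glucose transporters and glycolytic genes, 2 rose and 3 fell, with a median log2 fold change of 0.02. Eno2, an enolase isoform, rose to 61.1 ± 0.318 TPM in the libraries labelled knockout, against 48.5 ± 1.69 TPM in the controls, and Adpgk, an ADP-dependent glucokinase, to 36.0 ± 0.348 TPM under the knockout label, against 29.5 ± 0.881 TPM in the controls. Slc2a6, a hexose transporter of lysosomal membranes, fell by 0.22 on the log2 scale (limma adjusted p = 6.28e-04). Of 12 pentose phosphate genes, 1 rose and 4 fell: Rpe, ribulose phosphate epimerase, had a ratio of 1.40, whereas Pgd, which makes NADPH, and Rpia, ribose phosphate isomerase, had ratios of 0.818 and 0.752.

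Of 15 tested genes that handle pyruvate and lactate, 5 rose and 2 fell, near the 50.1% of all genes tested that passed. Pdhx and Dld, components of the pyruvate dehydrogenase complex, rose to 28.1 ± 0.221 TPM under the knockout label, against 19.3 ± 1.19 TPM in the controls, and to 169.2 ± 7.62 TPM under the knockout label, against 138.9 ± 4.59 TPM in the controls. Bsg, the chaperone that carries MCT1 and MCT4 to the membrane, fell to 193.3 ± 1.48 TPM in the libraries labelled knockout, against 228.4 ± 8.34 TPM in the controls. Slc16a1 and Bsg thus both fell. Of 15 tested glycogen genes 6 rose and 3 fell, beside the same 50.1%. Pgm2l1, which makes glucose 1,6-bisphosphate, and Gys1, glycogen synthase, had ratios of 1.92 and 1.35, both on chromosome 7 and both still called with its median subtracted, and Phka2, a regulatory subunit of phosphorylase kinase, had a ratio of 0.640.

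Of 17 tested genes of the machinery of HIF 5 rose and 2 fell, beside 26.7% and 23.4% of all genes tested. Cited2, which competes with HIF for its coactivators, rose to 82.8 ± 0.953 TPM in the libraries labelled knockout, against 45.0 ± 1.83 TPM in the controls (log2 fold change 0.87, limma adjusted p = 2.60e-07). Siah1a and Siah2, ubiquitin ligases that act on prolyl hydroxylases, rose by 0.51 and 0.40. Of 27 tested other hypoxia response genes 13 rose and 5 fell, beside the same shares of all genes tested, with a median of 0.13. Ddit4, an inhibitor of mTORC1 also induced by ATF4, rose to 64.8 ± 1.13 TPM under the knockout label, against 33.7 ± 1.65 TPM in the controls, and Wsb1, a ubiquitin ligase subunit, had a ratio of 1.35. Zfp395, a zinc finger gene, fell by 0.72 on the log2 scale, to 5.63 ± 0.170 TPM under the knockout label, against 9.94 ± 0.527 TPM in the controls.

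Of the glucose-sensing Mondo factors and their targets, 1 of 4 tested genes passed, beside 50.1% of all genes tested. Txnip, which restrains glucose uptake and responds to glucose itself, was at 137.5, 139.3 and 139.0 TPM in the libraries labelled knockout, against 106.0, 100.9 and 100.6 TPM in the controls (log2 fold change 0.43, SE 0.036, limma adjusted p = 1.03e-05). Every library labelled knockout was above every control for Txnip, as for Slc2a1, and the groups did not overlap for 58.5% of all genes tested.

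**Figure D5:**
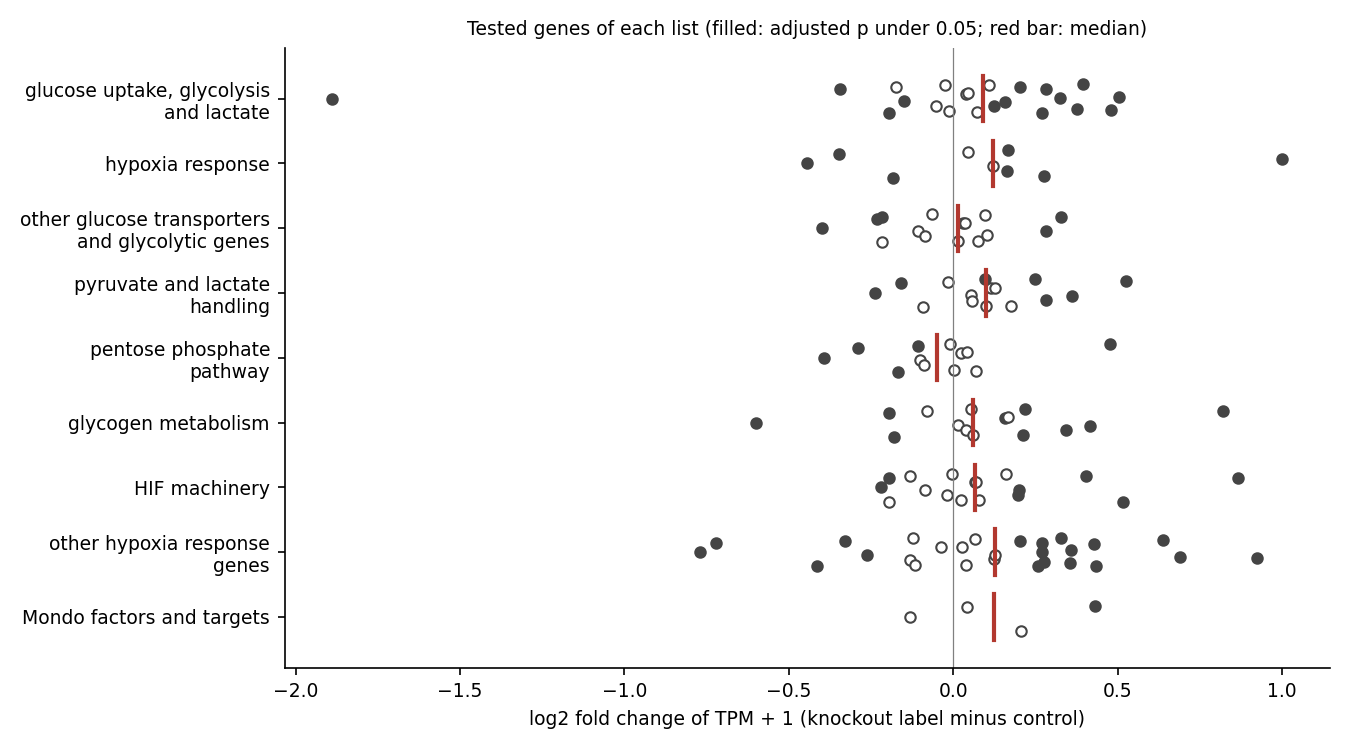
Log2 fold change of TPM + 1 (libraries labelled knockout minus controls) of the tested members and of the tested genes of the 7 lists of related pathways, filled where the adjusted p was under 0.05, with a red bar at the median. Genes on either side of 0 passed in every plotted row except that of the Mondo factors, and the plotted medians lie between −0.05 and 0.13.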

How the data were processed

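The members and the other gene lists were chosen with earlier results of these data known. Per the submitters' processing notes, the tools were bcl2fastq, HOMER 4.11.1, STAR 2.7.5a and DESeq2 and the genome build was mm10, with no role given for each. The authors deposited TPM values for 25124 symbols, 1 RefSeq transcript each, and a second table of log2 values per library (exact transform not given in the sources used here) with their own log2 fold change and p-values. Its comparison is headed WT vs. TG, and TG was read as the knockout label. TPM is not a count, so values with at least 1 TPM in at least 3 of the 6 libraries were compared as log2(TPM + 1) by limma 3.58.1 (R 4.3.3), trend option on, without covariates. Tests were two-sided, p-values were adjusted by Benjamini-Hochberg over all genes tested, and fold changes are signed as knockout label minus control. This scale understates the change of low genes. The script was tested on simulated data. TPM times transcript length fell on whole multiples of 1 step per library (100% of values checked within 0.1 of a whole number), which gave the reads behind each value. Replicates of a group differed by more than sampling noise in these reads (chi-square over its degrees of freedom, 1.74 to 5.50), so all 6 libraries were counted. The kit as named does not mark strand. All members are named, and of each other list up to 3 genes with the smallest adjusted p under 0.05. No marker of other cell types was tested, and some of those listed at 0 are named. Alternatives were a pseudocount of 0.1, no filter, a TPM minimum of 5, 2 scalings, limma-voom on the recovered reads, the authors' log2 values, subtraction of chromosome medians, a replicate block and leaving out each library.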

Additional observations from a re-analysis of the deposited data

How the results depend on the processing

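Of 460 member values recomputed under the alternatives, 426 kept their direction and their side of the threshold, 24 lost a call and 8 gained one. The sign turned for Tpi1, which ranged over −0.0279 to 0.0036 with 1 library left out (positive without replicate 3 under the knockout label, adjusted p = 0.947), and for Hk1, which ranged over −0.1242 to 0.0045 (positive without control replicate 2, adjusted p = 0.955). With 1 library left out, members higher ranged over 12 to 14 and lower over 5 to 8 (of 30 tested with any 1 control left out, since Ldhb then missed the filter, and otherwise of 31), all genes higher over 2429 to 2902 and lower over 2228 to 2585. The median of the glucose and lactate genes ranged over 0.0685 to 0.1227 and their falls over 2 (without control replicate 2) to 5, and the median of the hypoxia genes over 0.0831 to 0.1482. Falls ranged over 1 to 2 in the pyruvate and lactate list and 0 to 1 in the Mondo list, and rises in the HIF machinery over 3 to 5. Without a filter the hypoxia median was 0.0439 and the pyruvate and lactate list had 1 fall. On the authors' log2 values the medians were 0.058 for the glucose and lactate genes and 0.0814 for the hypoxia genes, the HIF machinery had 4 falls, the other hypoxia genes 8 and the Mondo list 2 rises. With limma-voom on recovered reads the HIF machinery had 5 falls, the other hypoxia genes 8 and the Mondo list 1. With chromosome medians subtracted the medians were 0.069 and 0.0336 and the HIF machinery had 4 falls. The difference in Hk3 share ranged over −1.4416 to 0.2272 percentage points with 1 library left out (positive without control replicate 1) and was 2.88 without the least abundant hexokinase, and that of Egln3 over −0.020248 to 0.042668 (negative without replicate 1 under the knockout label). Leaving out the lowest paralog was not run for families of 2. Replicate numbers did not pair the libraries (correlations of deviations −0.013, −0.058 and 0.003, and not every library correlated best with its own number). A replicate block gave 2794 genes higher and 2503 lower, with 13 members higher and 7 lower, and Hk3 no longer passing (adjusted p = 0.0581). The cause of these shifts was not tested. Depth limits Ldhb, Vegfa and Egln3, which rest on few reads, and intervals cover counting error only.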
